A study of Rattus norvegicus with 12 samples.

Results

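The genes described here clear hemoglobin, heme and iron from a hematoma, and 10 were considered: Hp, Cd163, Lrp1, Hmox1, Blvra, Blvrb, Fth1, Ftl1, Slc40a1 and Slc11a1. The genes were named by their known function, but earlier results of these data were known when they were chosen. A gene was measured through probe sets, each a group of short array probes, that the platform annotation gives to that gene alone, and where a gene had several the brightest over the 12 arrays was used. By this rule 7 of the 10 genes were measured, of 14217 genes with such a probe set in all. Fth1 and Ftl1 lay only on probe sets shared with other genes, so that their signals are given as those of the shared probe sets, and Slc11a1, a metal transporter of the macrophage phagosome, had no probe set in the annotation and was not analysed here.

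A hematoma fills with red cells, which lyse and release hemoglobin and heme. Haptoglobin, the product of Hp, binds free hemoglobin, and the macrophage receptor CD163 takes up the complex. Heme that leaves hemoglobin is bound by hemopexin and taken up through LRP1. Inside the cell heme oxygenase 1, encoded by Hmox1, cleaves heme into biliverdin, carbon monoxide and iron, and the biliverdin reductases BLVRA and BLVRB reduce the biliverdin. The iron is stored in ferritin, made of the chains FTH1 and FTL1, or leaves through ferroportin, encoded by Slc40a1, the only known exporter of iron from mammalian cells.

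Fracture hematoma was taken on day 3 from female Sprague-Dawley rats whose left femur had been cut, held at a gap of 1.5 mm and fixed from outside. The 4 groups crossed age with fixation: young rats of 12 weeks with a semi-rigid (YSR) or a rigid fixator (YR), and old rats of 52 weeks with a semi-rigid (OSR) or a rigid fixator (OR). The distance between bone and fixator was 7.5 mm in rigid and 15 mm in semi-rigid fixation. Each group had 3 Affymetrix arrays, 1 for each pool of 3 animals, so that the spread reported is that between pools. All groups had an osteotomy, and uninjured tissue was not analysed here. The design asks whether age, fixation or their interaction changed the expression of a gene.

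Values are log2 of the deposited signal with signals under 1 raised to 1, and every adjusted p is from limma with Benjamini-Hochberg adjustment over 31042 probe sets. A difference between groups is in log2 units, so that 1 unit is a doubling on the signal scale. On all arrays the trimmed mean signal was 500.2, and the median ranged from 126.9 to 167.5. The 3' to 5' signal ratio of Gapdh, a sign of RNA quality, was 6.69 (log2) on YSR array 1 and 2.96 on OR array 1, against 0.33 to 1.59 on the other 10 arrays. Among these 10, the YR arrays had the highest ratios, at 1.02, 1.59 and 1.38, and the rest were at 0.49 or below. The ratio thus set the YR group apart, and its part in the comparisons with YR was not tested. Counts of these genes past a threshold are also given without YSR array 1 and OR array 1 where they change. Leaving out these 2 arrays does not remove the difference of the YR arrays. The tissue label was checked against 9 measured erythroid markers and 15 measured monocyte and macrophage markers. None was at the floor on any array, and Hbb, a beta-globin, had group means of 15.12 in YSR and 15.24 in YR, and 15.12 in OSR and 15.49 in OR. The arrays measured bulk tissue, so that fewer cells of a type and less RNA per cell cannot be told apart.

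Promoter sequence was available for 5 of the 10 genes (Blvra, Blvrb, Cd163, Lrp1 and Slc40a1), from RefSeq on build GRCr8. The antioxidant response element, bound by NRF2 and by the heme sensor BACH1 together with small MAF proteins, is known for heme and iron genes, and its core TGACNNNGC (GCNNNGTCA on the other strand) was searched in the 250 bases before the start of transcription. It was found in 1 of the 5, Blvra, at 145 bases before the start, and in 10.1% of all 33469 promoters. A match is a description of the sequence and not a binding site. Sequence beyond these 250 bases was not searched, so that the absence of a match does not show that a gene lacks the element. The promoter of Blvra (chr3:134802660-134802909, plus strand) is shown as the only one with the core, which is in capitals, and that of Slc40a1 (chr9:55543461-55543710, minus strand) because the 3 probe sets of this gene leaned the same way with age, as given further on. Both run 5′ to 3′ and end at the base before the start.
Blvra: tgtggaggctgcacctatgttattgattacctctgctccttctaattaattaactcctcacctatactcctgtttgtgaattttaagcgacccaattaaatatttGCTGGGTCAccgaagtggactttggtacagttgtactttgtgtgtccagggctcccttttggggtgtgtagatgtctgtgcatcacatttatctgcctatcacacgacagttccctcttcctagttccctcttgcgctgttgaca
Slc40a1: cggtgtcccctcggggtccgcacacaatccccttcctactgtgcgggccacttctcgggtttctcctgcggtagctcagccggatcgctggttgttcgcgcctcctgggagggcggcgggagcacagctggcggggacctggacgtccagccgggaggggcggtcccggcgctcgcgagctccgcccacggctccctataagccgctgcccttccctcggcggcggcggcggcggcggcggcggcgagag

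No gene of the 7 measured passed an adjusted p of 0.05 in any comparison, and at most 0.00644% of all probe sets did in a comparison. Hmox1, Blvra and Blvrb, which degrade heme, had ranges of 0.80, 0.82 and 0.92 log2 units over the 12 arrays, and those of Hp, Cd163, Lrp1 and Slc40a1, which bind, take up or export, were 1.38 to 3.56, against a median range of 0.91 over probe sets of at least median signal. Hp and Slc40a1 had higher means in old than in young rats, and Lrp1 had a lower mean with rigid fixation. The OR group had the lowest mean of Cd163, Lrp1, Hmox1 and Blvra, and the highest of Hp, Blvrb and Slc40a1, and it was the highest or the lowest group for 60.0% of all genes. For Blvra OSR and OR differed by only 0.0087 (SE 0.18), and without OSR array 1 or OR array 3 their order turned (-0.10 and -0.13). The spread within groups differed between genes, with a pooled SD of 0.20 for Hmox1, 0.22 for Blvra, 0.26 for Lrp1, 0.37 for Blvrb, 0.57 for Cd163, 0.58 for Slc40a1 and 0.89 for Hp, against a median of 0.26 over probe sets of at least median signal.

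**Figure D1:**
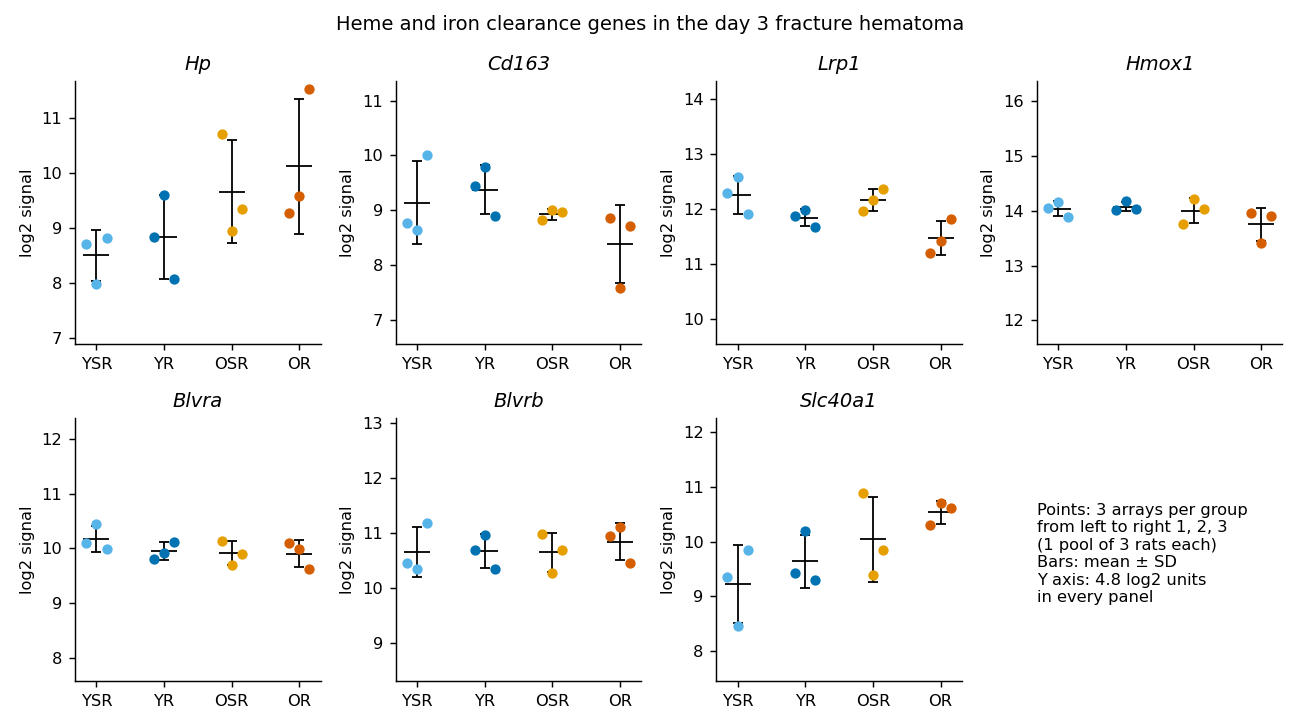
Log2 signal of the 7 genes in each of 12 arrays, by group (YSR, YR, OSR, OR). Points are the arrays 1, 2 and 3 from left to right, each 1 pool of 3 rats, with bars for the mean ± SD, and every vertical axis spans the same number of log2 units. Hp and Slc40a1 lie highest in OR and lowest in YSR on average, Lrp1 is lowest in OR, and Hmox1, Blvra and Blvrb stay within a range of less than 1 log2 unit.

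Of the 3 genes of hemoglobin and heme capture, Hp varied most. Hp was 8.70, 7.97 and 8.83 on YSR arrays 1 to 3, and 8.84, 9.60 and 8.07 on those of YR. It was 10.72, 8.94 and 9.34 in OSR, and 9.27, 9.58 and 11.53 in OR. The highest signals were thus on 1 OR and 1 OSR array, all YSR arrays lay below all OSR arrays, and the YR and OR arrays overlapped through YR array 2. The mean in old rats was 1.23 (SE 0.42, n = 6 against 6 arrays) above that in young rats, which is 2.34-fold, with an unadjusted 95% interval of 0.32 to 2.14 and a limma adjusted p of 0.40. The difference YR minus OR was -1.29 (SE 0.59) and -0.59 without OR array 3, and YSR minus OSR was -1.17 (SE 0.59) and -0.64 without OSR array 1, the arrays of highest Hp. The difference between rigid and semi-rigid fixation was 0.40 (SE 0.42, limma adjusted p = 0.912), which is within the spread between pools.

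The arrays with much Hp signal also had much neutrophil marker signal. Haptoglobin is made by the liver, and neutrophils carry it in granules. The 3 arrays of highest Hp, which were OR array 3, OSR array 1 and YR array 2, were the 3 of highest mean log2 signal over the 6 measured neutrophil markers (of 12 listed), at 11.62, 10.94 and 10.83, in the same order. The summed signal of these markers was 8856.6 to 16847 in YSR and 10717 to 49028 in YR, and 22445 to 63579 in OSR and 35152 to 86613 in OR. Their 2 brightest, S100a9 and S100a8, which encode calprotectin, were 1.45 (SE 0.36, limma adjusted p = 0.241) and 1.68 (SE 0.43, limma adjusted p = 0.257) higher in old rats. Of the 6 markers 4 had a higher and 2 (Csf3r and Cxcr2) a lower mean in old rats, none at an adjusted p under 0.05, and the median difference was 1.56 against -0.01 over all genes. The 7 hepatocyte markers were dim, with a summed signal of 334.6 to 594.5 over all arrays and group means of 7.44, 6.74, 7.45 and 6.25 in YSR, YR, OSR and OR for Ttr and of 6.26, 6.33, 5.87 and 6.53 for Serpina1, the 2 brightest. The median difference of the hepatocyte markers between old and young rats was 0.11, with 4 above and 3 below 0. Hp also moved with other lists. Over the 12 arrays its Pearson correlation was 0.91 with the mean of the neutrophil and 0.77 with that of the adipocyte markers. It was 0.62 with that of the erythroid and -0.34 with that of the macrophage markers. The 2 arrays of highest Hp ranked 2 and 3 for adipocyte markers. The part of these cells in the Hp signal was not tested.

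Cd163, the scavenger receptor for the haptoglobin-hemoglobin complex, leaned the opposite way. Its signal was 8.76, 8.64 and 10.01 on YSR arrays 1 to 3, and 9.45, 9.78 and 8.89 in YR. It was 8.82, 9.01 and 8.97 in OSR, and 8.86, 7.58 and 8.72 in OR. OR array 2 lay more than 1 unit below every other array, and all YR arrays lay above all OR arrays, the lowest of YR only just above the highest of OR. The mean of YR was 0.99 (SE 0.39, n = 3 against 3) above that of OR, or 1.98-fold, with a limma adjusted p of 0.535, and 0.58 without OR array 2. Over both fixations the mean in old rats was 0.60 lower (-0.60, SE 0.28, limma adjusted p = 0.581), with an interval from -1.20 to 0.00, and the difference was -0.39 without OR array 2 and -0.38 without YSR array 3.

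Lrp1, the receptor through which hemopexin-bound heme enters cells and which also takes up many other ligands, had a larger estimated difference with fixation than with age. It was 12.28, 12.58 and 11.90 on YSR arrays 1 to 3, and 11.88, 11.98 and 11.67 in YR. In OSR it was 11.96, 12.16 and 12.37, and in OR 11.20, 11.42 and 11.81. All OSR arrays lay above all OR arrays, and YSR and YR overlapped through YSR array 3. The difference OSR minus OR was 0.69 (SE 0.19, limma adjusted p = 0.872), which is 1.61-fold, and YSR minus YR was 0.41 (SE 0.19, limma adjusted p = 0.991), which was 0.25 without YSR array 2. Averaged over age, rigid minus semi-rigid was -0.55 (SE 0.14, interval -0.85 to -0.25, limma adjusted p = 0.818). For OSR minus OR the direction came from the brighter of 2 Lrp1 probe sets: the dimmer, with a mean of 6.25 and an SD of up to 1.49 within a group, gave -0.31 (SE 0.66) for OSR minus OR and -0.30 (SE 0.47) for rigid minus semi-rigid, and its Pearson correlation with the brighter was 0.33 over the 12 arrays. OR array 1, with the lowest Lrp1 signal, also had a high Gapdh ratio. Without it and YSR array 1 the difference rigid minus semi-rigid was -0.47 (SE 0.15, limma adjusted p = 0.522).

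Monocyte and macrophage markers were lowest on the arrays with the least Lrp1, which did not hold in the same way for Cd163. OR arrays 1 and 2, the lowest for Lrp1, had the lowest mean log2 signal over the 15 measured markers (of 20 listed), both at or below 11.21, and OR array 2 was the lowest for Cd163 and for Hmox1 too. The next lowest for Cd163, YSR array 2, had the second highest marker mean (11.96), and YSR array 1, of rank 9 of 12 for Cd163, had the highest (12.05). The summed signal of the markers was 95185 to 119220 in YSR and 100700 to 117420 in YR, and 82123 to 104860 in OSR and 72069 to 100730 in OR. Between old and young rats 11 of the 15 were lower and 4 higher, with a median of -0.39. Only Stab1, the scavenger receptor stabilin-1, passed, and it fell by 0.74 in old rats (SE 0.09, limma adjusted p = 0.0447), and was 1.29 higher in YR than in OR (SE 0.13, limma adjusted p = 0.00921). The call of Stab1 was kept in 5 of 20 alternatives for old minus young and in 14 of 21 for YR minus OR, where it was lost with no intensity trend, with the methods' test, without the 2 arrays of high Gapdh ratio and without YR array 1 or 3 or OR array 1 or 3, with adjusted p of up to 0.272. The 2 brightest, Lyz2 and Cd68, had differences of 0.13 (SE 0.16) and -0.36 (SE 0.12) between old and young rats. With fixation 13 of the 15 were lower in rigid groups and 2 higher (median -0.28), none at an adjusted p under 0.05. Lrp1 also moved against other lists. Its Pearson correlation over the 12 arrays was 0.83 with the mean of the macrophage and -0.68 with that of the erythroid markers. It was -0.56 for the fibroblast and -0.45 for the adipocyte markers. For Cd163 these values were 0.53, 0.02, -0.44 and -0.46 in the same order. The part of these cells in the Cd163 and Lrp1 values was not tested.

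**Figure D2:**
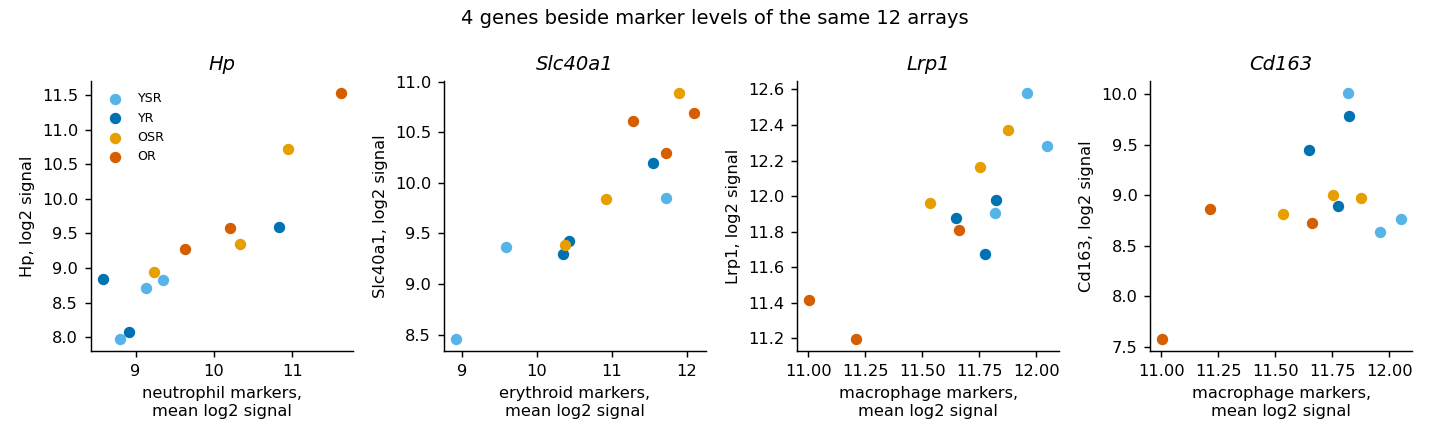
Log2 signal of Hp, Slc40a1, Lrp1 and Cd163 (vertical axes) against the mean log2 signal of neutrophil, erythroid or macrophage markers (horizontal axes), 1 point for each of the 12 arrays, coloured by group. The arrays of highest Hp are those of highest neutrophil marker signal, the array of lowest Slc40a1 has the lowest erythroid marker signal, and the 2 OR arrays of lowest macrophage marker signal have the lowest Lrp1.

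The genes of heme degradation had the smallest ranges of the 7. Hmox1, which encodes the inducible heme oxygenase, was 14.05, 14.16 and 13.89 on YSR arrays 1 to 3, and 14.02, 14.17 and 14.03 in YR. It was 13.77, 14.22 and 14.03 in OSR, and 13.95, 13.41 and 13.90 in OR. All YR arrays lay above all OR arrays, and the other pairs of groups compared here overlapped. As geometric means of the linear signal, the groups had 16780 (YSR), 17250 (YR), 16417 (OSR) and 13814 (OR). The whole range over 12 arrays was 0.80, and without OR array 2 all signals were at or above 13.77. Old minus young was -0.18 (SE 0.12, limma adjusted p = 0.708) with an unadjusted interval of -0.43 to 0.08, and rigid minus semi-rigid was -0.10 (SE 0.12) with an interval of -0.36 to 0.15. In fold terms, the interval for age runs from 0.742 to 1.06, so that a change of the Hmox1 signal by 2-fold with age lies outside it. The mean of Hmox1 was above that of 99.4% of all probe sets. Whether the arrays still followed the amount of RNA at this signal was not tested. YR minus OR, 0.32 (SE 0.17), had a limma adjusted p of 0.633.

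Blvra, the main biliverdin reductase of the adult, was 10.09, 10.44 and 9.99 in YSR and 9.80, 9.92 and 10.12 in YR. It was 10.13, 9.70 and 9.89 in OSR, and 10.09, 9.98 and 9.62 in OR, and all groups overlapped. Its difference between old and young rats was -0.16 (SE 0.12), and that between rigid and semi-rigid fixation -0.12 (SE 0.12). Blvrb, also known as flavin reductase and abundant in red cells, was 10.46, 10.34 and 11.18 in YSR and 10.69, 10.96 and 10.35 in YR, and 10.98, 10.26 and 10.69 in OSR and 10.94, 11.11 and 10.46 in OR. These groups overlapped as well, with differences of 0.08 (SE 0.18) for age and 0.10 (SE 0.18) for fixation. The highest and the lowest group mean of Blvrb differed by 0.19.

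The ferritin signals were high and even, with means above those of 99.96% (Fth1) and 99.88% (Ftl1) of all probe sets. Whether the arrays still followed the amount of RNA at such signals was not tested. The probe set shared by Fth1 and the pseudogene Fth1-ps5 was 15.08, 15.65 and 15.03 in YSR and 15.45, 15.66 and 15.20 in YR, and 15.21, 15.57 and 15.19 in OSR and 15.85, 15.51 and 15.47 in OR. That shared by Ftl1, Ftl1-ps14, Ftl1l2, LOC100362384 and LOC100360087 was 14.61, 15.38 and 14.74 in YSR and 14.98, 15.27 and 14.75 in YR, and 14.85, 15.20 and 14.88 in OSR and 14.94, 15.04 and 15.03 in OR. All groups overlapped in both. Old minus young was 0.12 (SE 0.14) for the first and 0.04 (SE 0.14) for the second, and rigid minus semi-rigid was 0.24 (SE 0.14) and 0.06 (SE 0.14). These values cannot be assigned to Fth1 or Ftl1 alone. Ferritin is moreover controlled largely at translation, which these arrays did not measure.

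Slc40a1, the iron exporter, had its lowest group mean in YSR, followed by YR, OSR and OR. It was 9.36, 8.46 and 9.85 on YSR arrays 1 to 3, and 9.43, 10.19 and 9.30 in YR. It was 10.88, 9.39 and 9.84 in OSR, and 10.30, 10.70 and 10.61 in OR. All OR arrays lay above all YR arrays, while YSR and OSR overlapped, and neighbours in the order of means (YSR and YR, YR and OSR, OSR and OR) overlapped. Geometric mean signals were 597.1, 796.9, 1051 and 1482. Old minus young was 0.85 (SE 0.28, 1.81-fold, interval 0.25 to 1.46, limma adjusted p = 0.38). The other 2 probe sets of the gene gave 1.02 (SE 0.30, limma adjusted p = 0.317) and 0.68 (SE 0.29, limma adjusted p = 0.534), and correlated with the brightest at 0.94 and 0.76 over the 12 arrays. Rigid minus semi-rigid was 0.46 (SE 0.28, limma adjusted p = 0.864).

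The arrays of lowest and highest Slc40a1 also stood at the ends of the erythroid marker signal. Ferroportin is present on erythroblasts and red cells as well as on macrophages. The lowest Slc40a1 signal was on YSR array 2, which had the lowest erythroid marker mean (8.91), and the 2 highest were on OSR array 1 and OR array 2, which had the highest erythroid marker means (11.90 and 12.10). All 9 measured erythroid markers (of 12 listed) had higher means in old than in young rats, with a median of 0.76, and in rigid than in semi-rigid groups, with a median of 0.75, and none had an adjusted p under 0.05. Their differences between old and young rats were 2.30 for Rhag, 1.60 for Klf1, 1.02 for Ahsp, 1.01 for Kel, 0.76 for Gata1, 0.73 for Epb42, 0.61 for Slc4a1, 0.45 for Alas2 and 0.12 for Hbb. Their summed signal was 50213 to 70041 in YSR and 56670 to 96999 in YR, and 62569 to 79942 in OSR and 78457 to 107590 in OR. Slc40a1 also moved with other lists. Its Pearson correlation over the 12 arrays was 0.91 with the mean of the erythroid, 0.81 with that of the neutrophil, 0.79 with that of the adipocyte and -0.65 with that of the macrophage markers. Its 2 highest arrays ranked 3 and 1 for adipocyte and 10 and 12 for macrophage markers. The part of these cells in the Slc40a1 values was not tested.

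The counts of members past a threshold were set beside those over all probe sets. At an adjusted p under 0.05 (limma), 0 of 7 genes passed for old minus young (0.00644% of all probe sets), YSR minus OSR and YR minus OR (0.00322% each), for YSR minus YR, OSR minus OR, rigid minus semi-rigid and the interaction (0.0% each) and for any difference among the 4 groups (0.00644%). The lowest adjusted p for any difference was 0.512 (Lrp1), and it was 0.708 for Slc40a1.

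At an unadjusted p under 0.05 (limma) up to 3 of the 7 genes passed in a comparison. For old minus young 2 of 7 passed, Hp and Slc40a1, both higher in old rats, against 8.59% of all probe sets. For YR minus OR, 3 genes passed (Cd163 higher, and Hp and Slc40a1 lower in YR) against 8.34%, and without the 2 arrays of high Gapdh ratio Hmox1 joined them. This count was 0 without YR array 1, and 1 without YR array 3, OR array 2 or OSR array 3, without dim probe sets, with no intensity trend, with the methods' test or with the replicate number as a block. Lrp1 alone passed for OSR minus OR (5.26%) and for rigid minus semi-rigid (5.73%), in both cases not with the mean of its 2 probe sets, and Lrp1 and Slc40a1 did for any difference (6.76%), where without the 2 arrays only Hp did. None passed for YSR minus YR (4.37%), YSR minus OSR (4.36%) or the interaction (3.8%). Without the 2 arrays Cd163 joined Hp and Slc40a1 for old minus young, at -0.81 (SE 0.29, limma adjusted p = 0.438). Taken as young minus old, the difference of Slc40a1 was -0.81 (SE 0.40) under semi-rigid and -0.89 (SE 0.40) under rigid fixation, 2 comparisons that share no arrays, and the first was -0.39 without OSR array 1 and -0.43 without YSR array 2.

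Groups without overlap were counted in the same way. For YR and OR these were 3 of 7 genes (Cd163, Hmox1 and Slc40a1), against 13.8% of all probe sets. For OSR and OR it was Lrp1 (10.8%), for YSR and OSR it was Hp (8.98%), and for YSR and YR there was none (9.38%). No gene separated all old from all young arrays (0.399% of probe sets did) or all rigid from all semi-rigid arrays (0.254%).

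The interaction, defined as YSR minus YR less OSR minus OR, tests whether fixation acted differently with age. Its size was largest for Cd163, at -0.78 (SE 0.55, interval -1.98 to 0.42), since YSR minus YR was -0.24 (SE 0.39) and OSR minus OR 0.54 (SE 0.39). It was -0.29 (SE 0.23) for Hmox1, -0.28 (SE 0.27) for Lrp1, 0.22 (SE 0.25) for Blvra, 0.18 (SE 0.37) for Blvrb, 0.12 (SE 0.84) for Hp and 0.08 (SE 0.56) for Slc40a1. The limma adjusted p was 0.990 or higher for each of them. The intervals of Hp (-1.69 to 1.94) and Slc40a1 (-1.13 to 1.29) also hold differences of 2-fold in either direction, while that of Hmox1 (-0.80 to 0.22) does not.

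**Figure D3:**
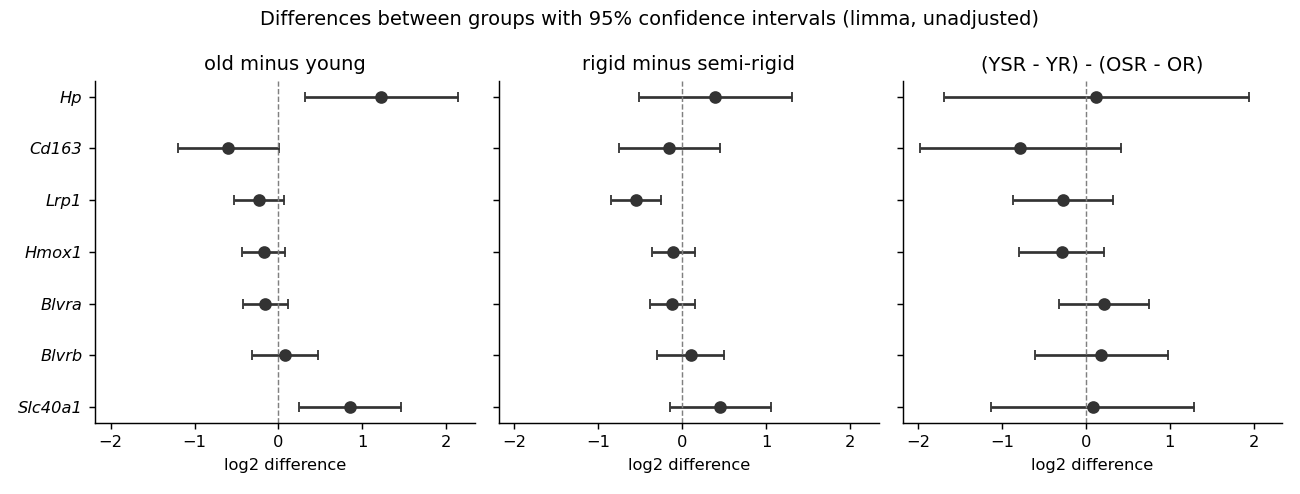
Differences in log2 signal of the 7 genes for old minus young, rigid minus semi-rigid and the interaction (YSR minus YR less OSR minus OR), with points for the estimates and bars for 95% confidence intervals from limma, not adjusted for the number of probe sets. For age the intervals of Hp (0.32 to 2.14) and Slc40a1 (0.25 to 1.46) lie above 0, for fixation that of Lrp1 (-0.85 to -0.25) lies below 0, and for the interaction all hold 0.

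The wider set of heme and iron genes held transporters, oxidases, regulators and chaperones, and 33 of 36 were measured (not Tf, Tmprss6 and Ftmt). None passed an adjusted p of 0.05 for old minus young, rigid minus semi-rigid or the interaction. For old minus young 13 had a higher and 20 a lower mean in old rats, with a median of -0.07, and at an unadjusted p under 0.05 there were 6 higher and 2 lower. Over all 14217 genes the median was -0.01, with 755 higher and 764 lower at that threshold. For rigid minus semi-rigid the median was 0.01, with 1 higher and 2 lower at an unadjusted p under 0.05 (5.73% of all probe sets), and for the interaction 0.04, with 2 above and 1 below 0 (3.8%).

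The strongest of them by age were Lcn2, Bmp6 and Nfe2l2. Lcn2, which encodes a neutrophil and epithelial protein that binds iron-carrying siderophores, had group means of 8.38 ± 0.18 (SD, n = 3) in YSR and 8.42 ± 1.09 in YR, and 9.83 ± 1.25 in OSR and 10.70 ± 1.62 in OR, a difference of 1.87 between old and young rats (SE 0.54, limma adjusted p = 0.320). Bmp6, whose product induces hepcidin in the liver, was 6.51 ± 0.14 in YSR and 6.66 ± 0.36 in YR, and 7.48 ± 0.13 in OSR and 7.20 ± 0.42 in OR, a difference of 0.76 (SE 0.22, limma adjusted p = 0.334). Nfe2l2, which encodes NRF2, an activator of Hmox1 transcription, was 11.59 ± 0.09 in YSR and 11.64 ± 0.09 in YR, and 11.24 ± 0.24 in OSR and 11.34 ± 0.20 in OR, a difference of -0.33 (SE 0.10, limma adjusted p = 0.356). Tfrc, the transferrin receptor of iron uptake, was named after its values were seen, and was 0.87 higher in old rats (SE 0.40, limma adjusted p = 0.579).

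By fixation and interaction the genes of smallest unadjusted p were others. Slc48a1, which carries heme out of the phagolysosome, had means of 10.60 in YSR and 10.64 in YR, and 10.92 in OSR and 10.24 in OR. Its difference between rigid and semi-rigid fixation was -0.32 (SE 0.12, limma adjusted p = 0.845) and its interaction -0.72 (SE 0.24, limma adjusted p = 0.990), so that the lower mean with rigid fixation was that of the old rats. For rigid minus semi-rigid there were also Ncoa4, the receptor that delivers ferritin for breakdown, at 0.41 (SE 0.17), and Steap3, a ferrireductase of the endosome, at -0.31 (SE 0.13). For the interaction there were Slc11a2, the divalent metal transporter DMT1, at 0.93 (SE 0.39), and Hpx, hemopexin, at 1.90 (SE 0.79), with dim means of 6.94, 6.01, 5.88 and 6.85 in YSR, YR, OSR and OR. All of these had limma adjusted p of 0.845 or higher.

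Targets of NRF2 in the antioxidant response, to which Hmox1 also belongs, had medians near 0 for age and fixation. Of 12 genes 10 were measured, and 5 had a higher and 5 a lower mean in old rats with a median of -0.06, none at an adjusted p under 0.05. With fixation the median was -0.02 and for the interaction -0.22, again with none. The genes that build heme leaned upward in old rats. All 8 measured of 9 had higher means in old rats, with a median of 0.48, among them Cpox at 0.95 (SE 0.39), Alad at 0.70 (SE 0.28), Fech at 0.49 (SE 0.33) and Alas2, the erythroid form of the first enzyme, at 0.45 (SE 0.26), which were chosen after their values were seen. None passed an adjusted p of 0.05 (limma), and 3 did at an unadjusted p under 0.05, against 8.59% of all probe sets. Alas2 is also 1 of the erythroid markers, and erythroid precursors express the other enzymes.

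**Figure D4:**
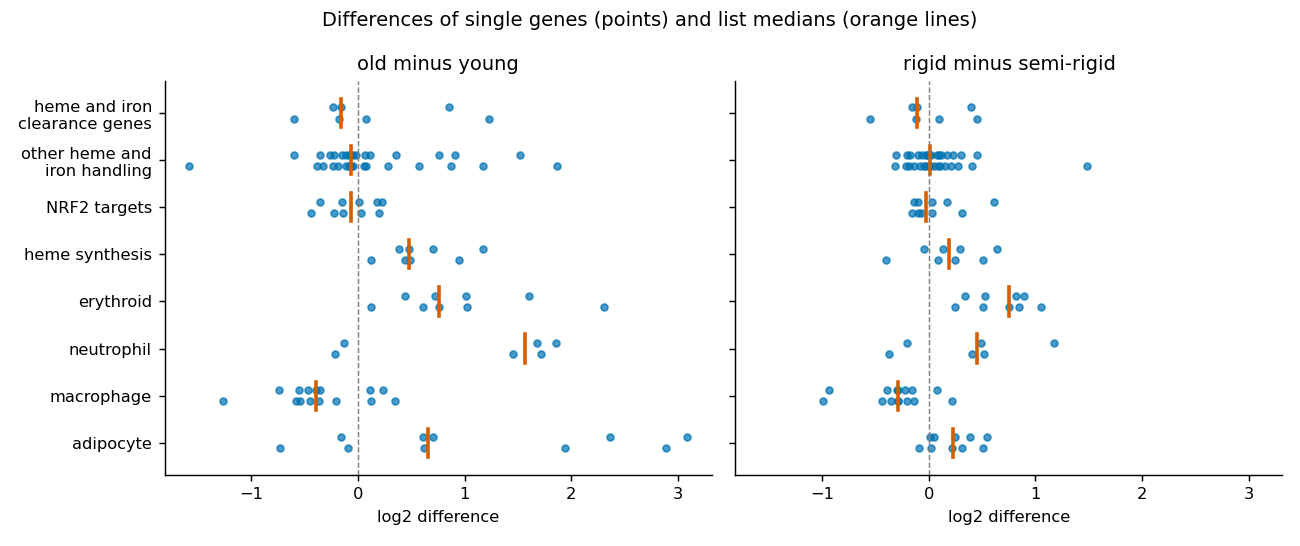
Differences in log2 signal of single genes (points, set on alternating heights to keep them apart) and the median of each list (vertical lines) for old minus young and rigid minus semi-rigid. For old minus young the medians are -0.16 for the 7 measured heme and iron clearance genes, -0.07 for the other heme and iron genes, -0.06 for NRF2 targets, 0.48 for heme synthesis, 0.76 for erythroid, 1.56 for neutrophil, -0.39 for macrophage and 0.66 for adipocyte markers.

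Markers of other cells of the gap also differed between arrays. Of 10 measured adipocyte markers 7 had higher means in old rats (median 0.66), 5 of them at an unadjusted p under 0.05 (8.59% of all probe sets), although the brightest, Fabp4 and Cfd, differed by -0.09 (SE 0.14) and 0.71 (SE 0.23). The medians were 0.22 for 10 fibroblast markers (Col3a1 at 0.19 and Fn1 at 0.01), 0.44 for 5 osteoclast markers (Ctsk at 0.44 and Acp5 at 0.90) and -1.42 for 10 skeletal muscle markers (Acta1 at -1.58 and Myh1 at 0.35). None of these markers passed an adjusted p of 0.05 (limma). The summed muscle signal ranged from 12538 to 112510 within OSR alone. Their part in the values of the heme and iron genes was not tested.

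Lrp1 and Slc40a1, the genes with the smallest p for any difference among the 4 groups, were set beside the other genes of at least median signal (9562 genes) by their Pearson correlation over the 12 arrays, which share their pools and scaling. Most like Lrp1 were Fkbpl (0.955), the lysosomal gene Cln3 (0.923) and the leukocyte tetraspanin Cd37 (0.918). Most like Slc40a1 were Rflnb (0.961), Acsl1, a fatty acid activating enzyme (0.951), and Specc1 (0.949). For Hp, named after its values were seen, they were Pglyrp1 (0.976) and Lcn2 (0.969), both found in neutrophil granules, and Ighl2 (0.952), an immunoglobulin segment in RefSeq. Among 9562 genes high correlations over 12 arrays arise easily, and they are given as a description.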

How the data were processed

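RNA of fracture hematoma was measured on 12 1-colour Affymetrix rat arrays, 3 for each of 4 groups assigned from the sample labels. What the authors deposited is a linear intensity per probe set (31099 in all), and the values show that every array had been brought to 1 trimmed mean. GCOS 1.2 is named in the submitters' processing notes, whereas the study's methods name PLIER, whose output was not used here. The number of arrays limits the precision.

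Signals under 1 (573 values) were raised to 1 and taken to log2. Leaving out 57 controls, 31042 probe sets were fitted with 4 group means in limma (version 3.58.1, R 4.3.3, tables read with the data.table package in version 1.17.8), and variances were moderated by eBayes along a trend in intensity. Comparisons were YSR minus YR, OSR minus OR, YSR minus OSR, YR minus OR, age, fixation, their interaction and any difference, with calls at a Benjamini-Hochberg adjusted p under 0.05. The other pairs differ in both factors and were not compared. Scripts were tested on simulated data. Summaries and plots were made with matplotlib 3.10.9, numpy 2.4.6 and pandas 2.3.3 under Python 3.11.15. Symbols came from the platform annotation (20832 probe sets with 1 symbol, 436 with several, 9831 with none), and 20764 were matched to RefSeq.

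The members and lists were chosen with earlier results of these data known. The naming rule covered every member, the 3 genes of the wider heme and iron and NRF2 lists with the smallest unadjusted p for age, fixation and the interaction, the 2 brightest of each marker list, all erythroid markers, and the 3 genes most like the 2 members of smallest p for any difference. Alternatives were quantile normalization, a pseudocount of 16, leaving out dim probe sets (mean under 7.16), fits without the trend, fits to the pair's arrays alone, a replicate block, the methods' test, other probe sets of a gene, and leaving out each array or the 2 arrays of highest Gapdh ratio. No 2 arrays were identical. The sources say that each array is a separate pool of animals.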

Additional observations from a re-analysis of the deposited data

How the results depend on the processing

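No member had an adjusted p under 0.05 in any comparison under any alternative, and the lowest adjusted p of any member was 0.246 (Slc40a1, old minus young). Over 49 differences of the 7 genes, 980 of 1029 alternative values kept their direction and 29 differences kept it throughout. Many of these values could not change. Alternatives that alter only the estimate of the spread or the set of probe sets return the same difference of group means. So does leaving out an array that is in neither group of a pair. The counts are thus not a measure of how stable the differences are. With quantile normalization Hmox1 YSR minus YR was 0.068 and Blvrb YSR minus OSR -0.0057. Without the 2 arrays of highest Gapdh ratio Blvrb YSR minus YR was 0.093. The dimmer Lrp1 probe set gave -0.31 for OSR minus OR, -0.81 for YR minus OR, 0.20 for old minus young and 1.22 for the interaction. The mean of all probe sets gave -0.22 for Lrp1 YR minus OR and interactions of 0.47 for Lrp1 and -0.027 for Slc40a1, and another Slc40a1 probe set gave -0.26. The cause of these reversals was not tested.

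Leaving out 1 array, YSR minus YR ranged from -0.72 to 0.046 for Hp, -0.68 to 0.0093 for Cd163, -0.10 to 0.034 for Hmox1 and -0.27 to 0.15 for Blvrb. OSR minus OR ranged from -0.98 to 0.24 for Hp and -0.13 to 0.11 for Blvra. YSR minus OSR ranged from -0.23 to 0.45 for Cd163, -0.072 to 0.27 for Lrp1, -0.087 to 0.14 for Hmox1 and -0.25 to 0.18 for Blvrb. Others were -0.090 to 0.15 for Blvra YR minus OR, -0.0049 to 0.21 for Blvrb old minus young and -0.28 to 0.066 for Cd163 rigid minus semi-rigid. Interactions ranged from -0.58 to 0.65 for Hp, -0.075 to 0.37 for Blvrb and -0.24 to 0.50 for Slc40a1.

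The number of probe sets called in the whole table, 2 for old minus young, was 4 with no intensity trend, 0 with the methods' test and 1 without the 2 arrays of highest Gapdh ratio, and 1 to 80 leaving out 1 array, with 80 without OSR replicate 3. For YR minus OR it was 1 (Stab1), and 0 with no trend, the methods' test or without the 2 arrays, 14 with only the arrays of the pair, and 0 to 4 leaving out 1 array. For YSR minus OSR it was 1, and 0 with quantile normalization, no trend, only the pair, the methods' test or without the 2 arrays, and 0 to 1 leaving out 1 array. Without the 2 arrays it was 27 for YSR minus YR and 3 for rigid minus semi-rigid, where the main count was 0. OSR minus OR and rigid minus semi-rigid gave 0 to 1 leaving out 1 array. For any difference, 2 were called, and 0 with no trend or the methods' test, 20 without the 2 arrays and 0 to 7 leaving out 1 array.

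Over probe sets of at least median signal, same-numbered arrays did not deviate together in the median (correlation 0.019 over 18 pairs, against 0.020 over 36 others). Single pairs of the same number ranged from -0.41 to 0.41. The highest signal of an array was 68595.7 to 71695.3 on arrays 2 and 45957.8 to 61972.1 on arrays 3. On arrays 1 it was 49862.2 to 99658.6. Whether arrays of the same number were handled together was not tested. With the replicate number as a block 0 probe sets were called for YSR minus OSR, 1 for old minus young and 0 for any difference, and 0 members in each comparison.

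Under quantile normalization the list medians for age kept their sign, while for fixation the median of the fibroblast markers was -0.0034 in place of 0.10. Without the 2 arrays the median for age of the hepatocyte markers was -0.17, and that for fixation of the other heme and iron genes -0.03.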
